A study of Canis lupus familiaris with 69 samples.

Results

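The genes described here are those of the cell cycle and of DNA replication, measured in the endometrium of 69 dogs on Affymetrix canine whole-transcript (Gene 1.0 ST) arrays. They were taken by gene symbol from a list of 55, and 53 of them were among the 15947 genes that had a probe set of their own (CCNB1 and AURKA were not analysed here). All 20 listed G1/S genes were measured, and 33 of the 35 listed mitotic genes. Each dog had 1 array, and each value is a log2 expression level, so that a difference of 1 is 2-fold. Levels of different genes cannot be set against each other on this scale.

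The samples were macrodissected endometrium from ovariohysterectomy, with the luminal exudate left out. Pyometra, an infected uterus filled with pus, was studied in 17 dogs, of which 10 had earlier been given progesterone-like compounds to suppress estrus (called treated) and 7 had not. Mucometra, a uterus with sterile fluid, was studied in 15 dogs (2 treated), and cystic endometrial hyperplasia (CEH) in 16 dogs (4 treated). The 21 diestrus dogs had a healthy uterus in early diestrus, and 1 of them was treated. The second label of the mucometra dogs reads Hemometra, and the sample titles were followed here. Cycle stage was diestrus in 15 pyometra, 9 mucometra and 10 CEH dogs and anestrus in 2, 6 and 6. The 2 anestrus pyometra dogs were both untreated. The paper divides diestrus into early, mid and late, with gland growth strongest in the early part. Only the healthy dogs were all in early diestrus, and these parts were not known for each single dog here. Among the pyometra dogs the cervix was closed in 7 treated and 2 untreated and open in 3 treated and 5 untreated dogs. As a group the diestrus dogs were younger, which cannot be told apart from their health in any comparison with them.

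In a dividing cell, E2F transcription factors switch on the genes that load the MCM helicase onto replication origins, open the origins and supply deoxynucleotides, and this is the G1/S group. Later in the cycle FOXM1 and MYBL2 act with other factors on the genes for mitotic cyclins, spindle motors, the kinetochore and the checkpoint that waits for chromosomes to attach, and this is the mitotic group. In the uterus of the bitch, estrogen and then progesterone drive waves of growth of glands and stroma, and the early part of diestrus is a time of gland growth. Because the arrays measured whole tissue, fewer cells in cycle and less RNA per cell cannot be told apart in any of the results.

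Array medians lay between 6.20 and 6.34 over the 69 arrays. Endometrial markers were present in every group: KRT18, an epithelial keratin, lay between 9.24 and 12.56 and VIM, a stromal filament protein, between 11.12 and 12.88. The treated mucometra dog 216 and the untreated pyometra dog 100 had the most alike pair of arrays (r = 0.888, median absolute difference 0.14), and counts without both are given where they move.

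Over the 4 diagnoses, 48 of the 53 genes differed by limma's F test at an adjusted p under 0.05 (16 of 20 G1/S and 32 of 33 mitotic genes), where 66.3% of all genes did. MCM2, MCM7, CCNE2, E2F2 and the kinesin KIF4A were the 5 that did not. The mean of the 33 mitotic genes, each taken relative to its own mean over the 69 dogs, was 1.30 ± 0.37 in treated pyometra (SD, n = 10), -0.57 ± 0.60 in untreated pyometra (n = 7), -0.77 ± 0.48 in mucometra (n = 15), -0.30 ± 0.92 in CEH (n = 16) and 0.35 ± 1.15 in diestrus (n = 21). The same mean of the 20 G1/S genes was 0.76 ± 0.24, -0.39 ± 0.22, -0.36 ± 0.20, -0.17 ± 0.47 and 0.15 ± 0.75 in the same order. Treated pyometra dogs were all high, mucometra dogs were nearly all low, and the healthy diestrus dogs reached from the low to the very top of the range.

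**Figure D1:**
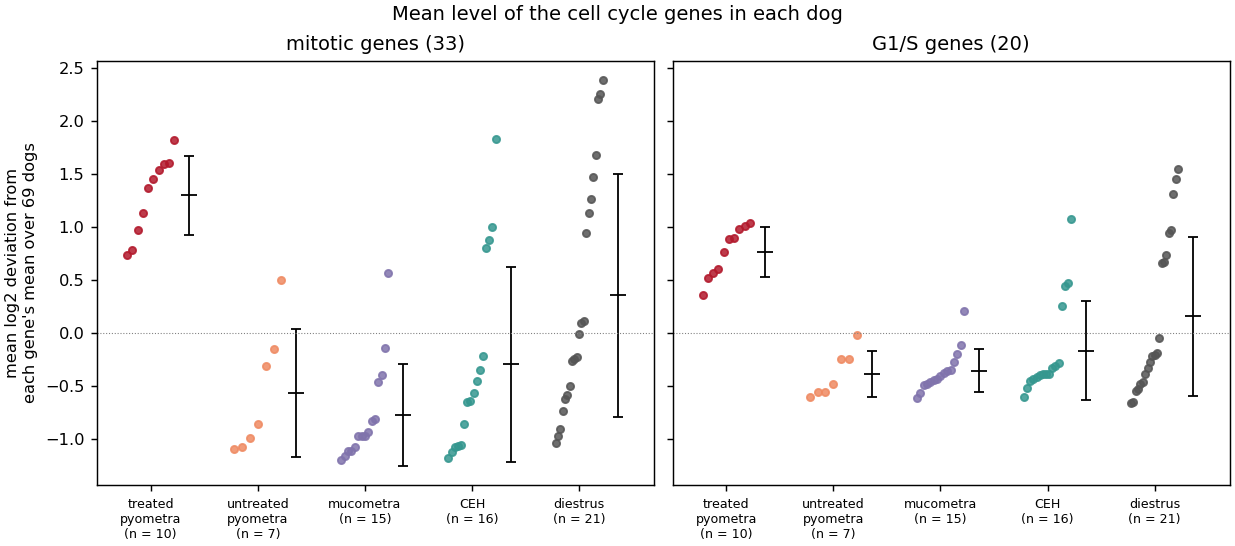
Mean of the 20 G1/S genes and of the 33 mitotic genes in each dog, on the log2 scale relative to each gene's mean over the 69 dogs, with the dogs of each group sorted by value and a bar for the group's mean ± SD. The 10 treated pyometra dogs sit between 0.73 and 1.82 for the mitotic genes, while the diestrus dogs reach from -1.04 to 2.38.

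Levels of single genes are given as the lowest, the median and the highest dog of a group. MKI67, the antigen that marks cells in cycle, had 8.54, 9.36 and 9.75 in treated pyometra, 5.48, 6.16 and 8.31 in untreated pyometra, 5.26, 5.86 and 7.87 in mucometra, 5.15, 6.58 and 10.11 in CEH and 5.51, 7.40 and 10.45 in diestrus. The lowest treated pyometra dog stood above the highest untreated and above the highest mucometra dog, while CEH and diestrus dogs lay on both sides. TOP2A, which untangles sister DNA, had 7.17, 8.06 and 8.57 in treated pyometra, 4.44, 5.15 and 7.19 in untreated pyometra, 4.21, 4.88 and 7.71 in mucometra, 4.34, 5.67 and 8.60 in CEH and 4.53, 6.21 and 9.13 in diestrus. Here a single untreated dog, at 7.19, reached just above the lowest treated one.

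KIF11, the motor that pushes the spindle poles apart, had 6.77, 7.81 and 8.23 in treated pyometra, 4.10, 4.74 and 6.61 in untreated pyometra, 3.96, 4.39 and 6.74 in mucometra, 3.47, 4.94 and 8.07 in CEH and 3.83, 5.78 and 8.67 in diestrus. CDK1, the kinase that starts mitosis, had 4.97, 6.05 and 6.61 in treated pyometra, 3.19, 4.21 and 5.23 in untreated pyometra, 3.19, 3.67 and 5.10 in mucometra, 2.71, 3.63 and 6.43 in CEH and 3.19, 4.35 and 7.08 in diestrus. Treated and untreated pyometra did not overlap in KIF11 and overlapped in CDK1. The checkpoint kinase BUB1 had 6.93, 7.65 and 8.44 in treated pyometra, 4.13, 5.44 and 6.62 in untreated pyometra, 4.23, 4.82 and 6.51 in mucometra, 4.38, 5.25 and 8.11 in CEH and 4.86, 6.16 and 8.96 in diestrus, so that treated pyometra stood apart from untreated pyometra and from mucometra. FOXM1, a transcription factor of the mitotic genes, had 6.07, 6.93 and 7.59 in treated pyometra, 5.02, 5.71 and 6.45 in untreated pyometra, 4.55, 5.44 and 6.25 in mucometra, 5.02, 5.63 and 7.86 in CEH and 5.23, 6.14 and 8.37 in diestrus. AURKB, the kinase that corrects faulty attachments of chromosomes, had narrow ranges, with 7.06, 7.77 and 8.40 in treated pyometra, 6.48, 6.83 and 7.79 in untreated pyometra, 6.83, 7.44 and 7.80 in mucometra, 6.85, 7.83 and 8.85 in CEH and 6.97, 7.63 and 9.14 in diestrus. Its groups overlapped throughout.

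Among the G1/S genes, CDC6, which loads the MCM helicase, had 7.02, 7.76 and 8.23 in treated pyometra, 4.78, 5.39 and 6.68 in untreated pyometra, 4.87, 5.35 and 6.63 in mucometra, 4.73, 5.46 and 8.02 in CEH and 5.14, 6.20 and 8.58 in diestrus. MCM2, a subunit of that helicase, had 6.78, 7.68 and 8.36 in treated pyometra, 5.76, 6.01 and 6.87 in untreated pyometra, 6.12, 6.53 and 7.48 in mucometra, 5.93, 6.60 and 7.91 in CEH and 5.67, 6.60 and 8.52 in diestrus. CDC6 separated treated from untreated pyometra, and MCM2 did so but for a small overlap. MCM4, another subunit, spanned less, with 7.87, 8.35 and 8.62 in treated pyometra, 7.02, 7.45 and 7.84 in untreated pyometra, 6.83, 7.21 and 8.11 in mucometra, 6.80, 7.19 and 8.52 in CEH and 6.77, 7.28 and 9.11 in diestrus.

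PCNA, the sliding clamp of the DNA polymerases, had 8.18, 8.69 and 9.14 in treated pyometra, 7.29, 7.76 and 7.97 in untreated pyometra, 7.15, 7.36 and 7.85 in mucometra, 7.06, 7.35 and 9.27 in CEH and 6.72, 7.88 and 9.80 in diestrus. RRM2, the regulated subunit of ribonucleotide reductase, had 7.80, 8.62 and 9.12 in treated pyometra, 5.56, 6.53 and 7.58 in untreated pyometra, 5.40, 6.83 and 8.68 in mucometra, 4.88, 6.31 and 8.89 in CEH and 5.12, 6.34 and 8.67 in diestrus. Both genes set treated wholly above untreated pyometra, and for RRM2 the medians of the other 4 groups lay close together. E2F1, an activator of G1/S genes, had 6.50, 6.93 and 7.63 in treated pyometra, 4.68, 5.77 and 6.12 in untreated pyometra, 5.41, 5.84 and 6.87 in mucometra, 5.58, 6.12 and 7.97 in CEH and 5.60, 6.49 and 8.46 in diestrus. CCNE1, the cyclin that drives entry into S phase, had 6.49, 7.31 and 7.80 in treated pyometra, 5.74, 6.12 and 6.69 in untreated pyometra, 5.67, 6.04 and 6.97 in mucometra, 5.37, 6.00 and 6.43 in CEH and 5.31, 5.99 and 6.69 in diestrus. Unlike the other genes of this list, CCNE1 was no higher in its highest diestrus dog than in its highest untreated pyometra dog, and it was the only member in which treated pyometra lay wholly above CEH, as 2.36% of all genes did.

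**Figure D2:**
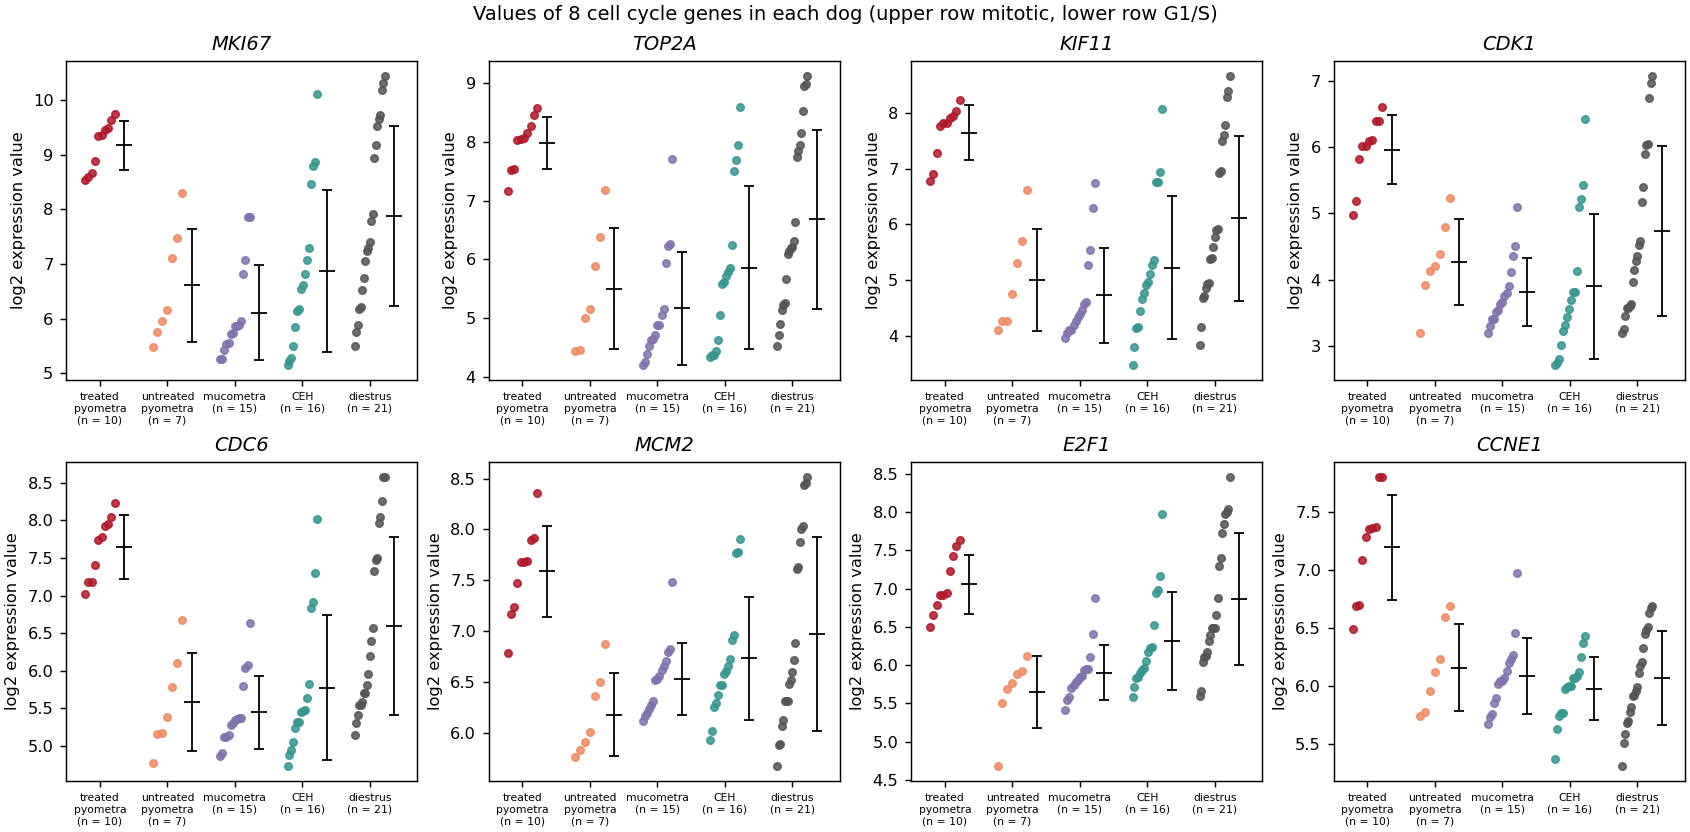
Log2 level of 4 mitotic genes (MKI67, TOP2A, KIF11 and CDK1) and 4 G1/S genes (CDC6, MCM2, E2F1 and CCNE1) in each of the 69 dogs by group, with bars for the group mean ± SD. Treated pyometra is high in all 8 genes and diestrus has the widest spread in all but CCNE1.

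The comparison of treated with untreated pyometra asks how the endometrium differs when pyometra follows use of progesterone-like compounds. Proliferation genes were higher in the treated dogs almost without exception: 42 of the 53 rose by at least 2-fold at an adjusted p under 0.05 (a gene past both is called here), 32 of 33 mitotic and 10 of 20 G1/S genes, where 2.88% of all genes rose. None fell. All 53 fold changes were positive, with a median log2 fold change of 1.69 (1.99 for mitotic and 1.01 for G1/S genes) beside 0.00 for all genes. Of the 53, 51 passed the adjusted p alone, a limit at which the share of all genes is not given here. In 11 of the 20 G1/S genes and 19 of the 33 mitotic genes every treated dog stood above every untreated dog, as in 1.19% of all genes. With 1 array a dog, the errors are those between dogs.

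The licensing genes rose in 5 of 10 cases, with a median of 1.11. CDC6 rose 4.19-fold (log2 fold change 2.07 ± 0.24, SE, adjusted p = 4.16e-05), and MCM10, which helps to fire origins, rose 3.79-fold (1.92 ± 0.20, adjusted p = 1.88e-05). CDC45, a partner of the MCM ring at the fork, rose by 1.43 ± 0.18 on the log2 scale, MCM2 by 1.41 ± 0.20 and MCM3 by 1.26 ± 0.17. The other helicase subunits were not called, with MCM5 at 0.96 ± 0.16, MCM4 at 0.92 ± 0.13 (adjusted p = 0.00013), MCM6 at 0.69 ± 0.17 and MCM7 at 0.30 ± 0.12 (adjusted p = 0.0964), and neither was the loader CDT1 at 0.93 ± 0.13. Subunits of 1 complex thus spanned log2 differences of 0.30 to 1.41.

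Of the genes for nucleotides and the clamp, RRM2 alone of 4 rose, 4.04-fold (2.01 ± 0.28, adjusted p = 0.000137). PCNA missed the 2-fold limit at 1.98-fold (0.98 ± 0.14, adjusted p = 0.000164). RRM1, the constant subunit of ribonucleotide reductase, differed by 0.58 ± 0.11, and TYMS, thymidylate synthase, by 0.29 ± 0.12 (adjusted p = 0.118). The second probe set of TYMS gave a like difference of 0.30.

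Among the regulators of G1/S, 4 of 6 rose, with a median of 1.22. MYBL2, which acts on both S phase and mitotic genes, rose 4.42-fold (2.14 ± 0.25, adjusted p = 4.16e-05), the repressor E2F8 by 1.54 ± 0.22 on the log2 scale, E2F1 2.64-fold (1.40 ± 0.20, adjusted p = 0.000145) and CCNE1 2.05-fold (1.03 ± 0.20, adjusted p = 0.00179). CCNE2 at 0.73 ± 0.15 and E2F2 at 0.35 ± 0.11 (adjusted p = 0.0357) were not called. E2F2 also had the smallest SD of the members in treated pyometra, in CEH and in diestrus (0.17, 0.17 and 0.16).

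Mitotic cyclins and kinases rose in 6 of 7 cases, with a median of 1.69. CCNA2, the cyclin of S and G2 phase, rose 5.49-fold (2.46 ± 0.28, adjusted p = 4.03e-05), PLK4, which copies the centriole, by 1.93 ± 0.23 on the log2 scale, CDK1 3.24-fold (1.70 ± 0.26, adjusted p = 0.000337), the mitotic kinase PLK1 by 1.69 ± 0.26, CCNB2 by 1.17 ± 0.19 and FOXM1 2.20-fold (1.14 ± 0.24, adjusted p = 0.00328). AURKB was the 1 mitotic gene not called, at 1.75-fold (0.81 ± 0.21, adjusted p = 0.0161).

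All 5 checkpoint and exit genes rose, with a median of 2.04. UBE2C, the ubiquitin conjugase of the anaphase-promoting complex, rose 5.51-fold (2.46 ± 0.32, adjusted p = 8.26e-05) and BUB1 4.44-fold (2.15 ± 0.29, adjusted p = 0.000113). TTK, the kinase that starts checkpoint signalling, rose by 2.04 ± 0.26 on the log2 scale, BUB1B by 1.99 ± 0.23 and CDC20, the activator of the anaphase-promoting complex, by 1.42 ± 0.19. The 6 kinesins rose as well, with a median of 1.82, and KIF11 had the largest change of all members (6.26-fold, 2.65 ± 0.32, adjusted p = 4.88e-05), which ranked 12 among the 15947 genes by size. KIF2C, which takes microtubules apart, had the smallest change among the kinesins at 1.12 ± 0.14.

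Spindle and cytokinesis genes had the highest median of any role, 2.15, and 7 of 7 rose. PRC1, which bundles the midzone, rose by 2.44 ± 0.29, the spindle factor DLGAP5 by 2.43 ± 0.32, ASPM, a spindle pole protein, by 2.23 ± 0.34, ANLN, a scaffold of the contractile ring, by 2.15 ± 0.36, TPX2, which activates a spindle kinase, by 2.06 ± 0.27 and ECT2, which triggers furrowing, by 2.05 ± 0.23. NUSAP1 rose by 1.48 ± 0.29, and its second, dimmer probe set differed by 0.49 only. The 8 kinetochore and chromosome genes all rose, with a median of 1.97. MKI67 rose 5.91-fold (2.56 ± 0.34, adjusted p = 0.000103) and TOP2A 5.59-fold (2.48 ± 0.33, adjusted p = 0.000116), ranks 18 and 21 of all genes by size. The outer kinetochore partners NUF2 and NDC80 rose by 2.12 ± 0.28 and 2.10 ± 0.22, and HJURP, the loader of centromeric histone, had the smallest change at 1.08 ± 0.14 (adjusted p = 0.000113).

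Cervix and treatment went together in part in these dogs, so the comparison was also made within each state of the cervix, a step added after the data were seen. With a closed cervix (7 treated, 2 untreated) 43 members rose, where 3.93% of all genes rose, and 41 of them were called without the split as well. The untreated side there was dogs 100 and 207 only, and dog 100 is the one most alike to mucometra dog 216. With an open cervix (3 treated, 5 untreated) no member was called, where 0.0564% of all genes rose. All 53 differences were still positive there, with a median of 1.41 and a range of 0.26 to 2.31, and 49 had an unadjusted p under 0.05 by limma against 12.5% of all genes, the lowest adjusted p being 0.0614. MKI67 had 8.60, 8.89 and 9.45 in the 3 treated dogs with an open cervix against 5.96, 7.12 and 8.31 (lowest, median and highest) in the 5 untreated ones, which did not overlap. In dogs with a closed cervix its lowest, median and highest values were 8.54, 9.36 and 9.75 in the 7 treated dogs, and the 2 untreated dogs had 5.48 and 5.76. A fit with cervix as a covariate called 43.

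Markers of other cells moved with treatment too. The 13 neutrophil markers, among which 10 rose, averaged 1.46 to 3.44 over the treated and -0.41 to 1.89 over the untreated pyometra dogs, relative to their means over all dogs. The untreated dogs were split: dogs 199, 217 and 225 had 1.89, 0.78 and 1.25. Dogs 100, 198, 207 and 214 had -0.41, -0.18, -0.39 and -0.36, within the -0.60 to 0.09 of the mucometra dogs. Of the macrophage and monocyte markers 7 of 13 rose (1.12 to 2.46 against -0.09 to 1.61). In the B and plasma cell list 6 of 10 rose (-0.21 to 2.73 against -0.87 to 2.04) and in the T and NK cell list 4 of 17 (0.11 to 1.70 against -0.47 to 0.45). PTPRC, the antigen common to leukocytes, was at 8.69 to 10.17 in treated and 7.13 to 8.40 in untreated dogs. Squamous and basal epithelium markers fell in 2 of 9 cases (-0.48 to 0.22 against -0.35 to 2.89) and smooth muscle markers in 2 of 10 (-2.37 to 0.81 against -0.04 to 1.13), and KRT5, a basal keratin, was at 4.61 to 5.71 in treated and 4.80 to 11.53 in untreated dogs. None of the 15 simple epithelium, 13 stromal or 11 endothelial markers was called by limma (2, 0 and 9 had an unadjusted p under 0.05). Over the 10 treated dogs Pearson's r with the mean of the mitotic genes was -0.79 for neutrophil and -0.62 for macrophage and monocyte markers. It was -0.11 for B and plasma cell and -0.37 for T and NK cell markers. Over the 7 untreated dogs r was 0.64, 0.78, 0.25 and -0.09 in the same order. The part of these cells in the result was not tested.

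**Figure D3:**
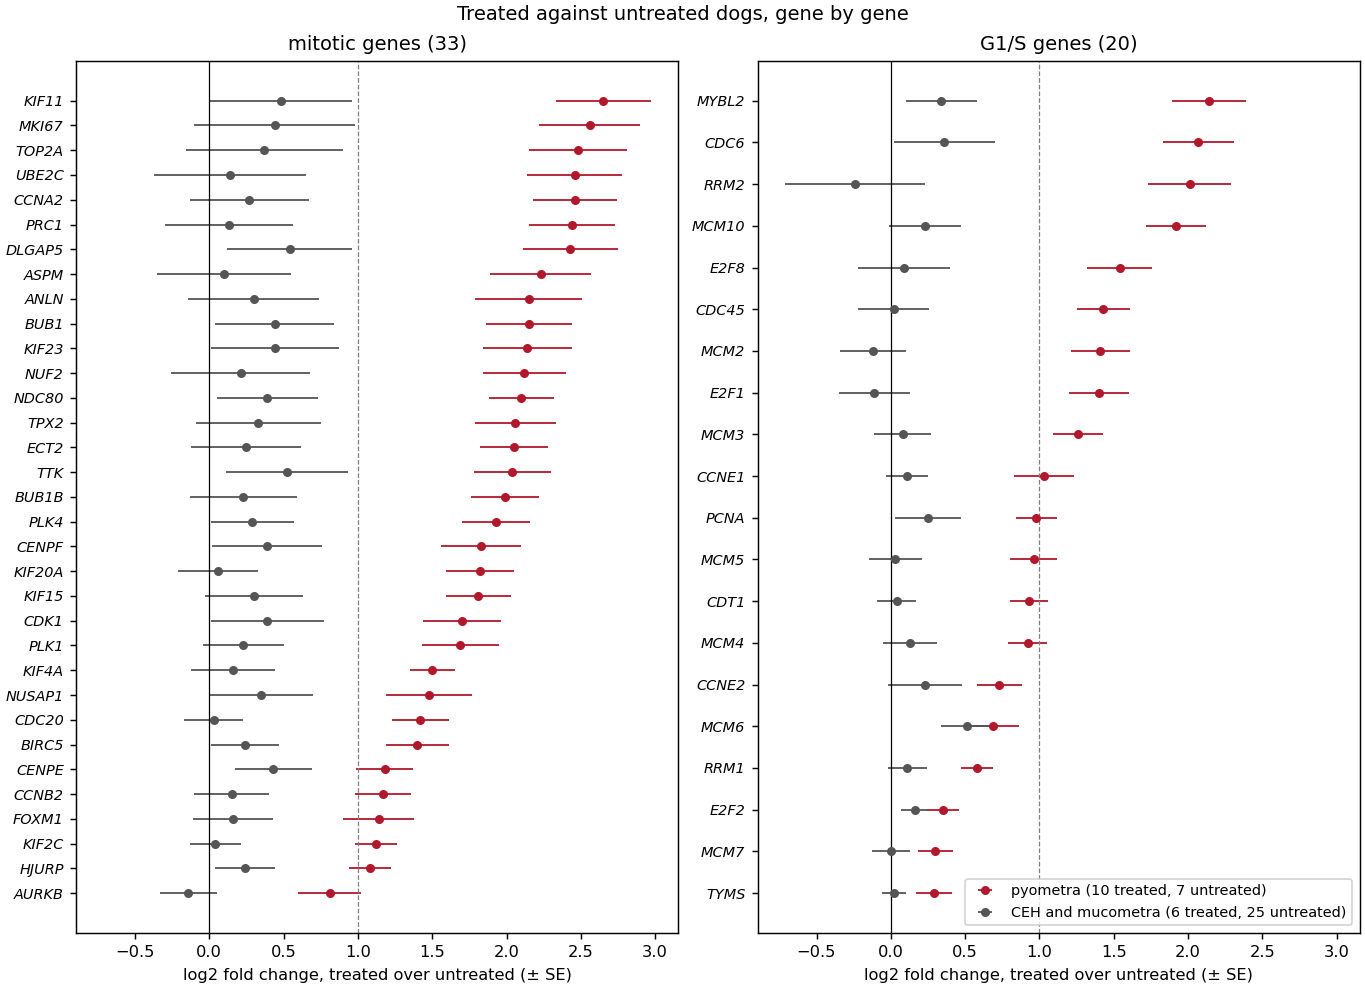
Log2 fold change ± SE of each of the 53 genes for treated against untreated dogs, in pyometra (red, 10 against 7 dogs) and in CEH and mucometra (grey, 6 against 25 dogs, with diagnosis as a factor). Mitotic and G1/S genes have separate panels, sorted by the pyometra value, with a dashed line at 2-fold. The pyometra values run from 0.29 to 2.65, and the values in CEH and mucometra from -0.24 to 0.54.

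In the dogs with sterile disease no difference by treatment was called. In CEH and mucometra together (6 treated, 25 untreated) no member was called, as no gene rose among all genes (0%), and by limma 1 member had an unadjusted p under 0.05, MCM6 (0.51 ± 0.17, adjusted p = 0.501), as did 1267 of all genes. The members' median was 0.23 (0.27 for mitotic and 0.10 for G1/S genes), 49 of 53 were positive, and the range was -0.24 to 0.54. RRM2 had the lowest value, -0.24, and the spindle factor DLGAP5 the highest, 0.54 ± 0.42. MKI67 had 5.15, 6.87 and 8.86 (lowest, median and highest) in the 6 treated dogs, against 5.26, 5.95 and 10.11 in the 25 untreated dogs, so that the groups overlapped over almost their whole range.

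The difference between both treatment effects was tested itself, as an interaction over 48 dogs. It was called for 34 members (25 mitotic and 9 G1/S), all larger in pyometra, where 2.55% of all genes were called in that direction, and its median was 1.46. The ubiquitin conjugase UBE2C had the largest value (2.32 ± 0.66, adjusted p = 0.0177), followed by PRC1 (2.31 ± 0.57, adjusted p = 0.00596) and RRM2 (2.25 ± 0.61, adjusted p = 0.0123), while MYBL2 had the lowest adjusted p among these examples (1.80 ± 0.35, adjusted p = 0.000824). CENPE, a kinetochore motor, differed by 0.74 (adjusted p = 0.162), and MCM6 and E2F2 by 0.19 each. Without the closely alike dogs 100 and 216 the count was 13. All 10 treated pyometra dogs were in diestrus, while of the 6 treated CEH and mucometra dogs 3 were in diestrus and 3 in anestrus. Stage was not in this fit, and its part was not tested.

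Against healthy diestrus, the mucometra dogs had lower mitotic genes and, by smaller amounts, lower G1/S genes. In mucometra 23 members fell, 21 mitotic and 2 G1/S (CDC6 and E2F8), where 2.80% of all genes fell, and none rose. The median was -0.92 (-1.16 for mitotic and -0.48 for G1/S genes). By the adjusted p alone 41 were lower, 30 mitotic and 11 G1/S, a limit at which the share of all genes is not given here. All 7 spindle and cytokinesis genes fell, as did 4 of 5 checkpoint and exit genes, 4 of 8 kinetochore and chromosome genes, 3 of 6 kinesins, 3 of 7 cyclins and kinases, 1 of 10 licensing genes, 0 of 4 nucleotide and clamp genes and 1 of 6 regulators. Of the spindle genes, NUSAP1 was at -1.34, while its second, dimmer probe set was at -0.30 only. MKI67 fell by 1.77 ± 0.45 on the log2 scale (3.41-fold lower, adjusted p = 0.00128), ANLN by 1.74 ± 0.30 (3.33-fold, adjusted p = 8.51e-06) and TTK by 1.73 ± 0.28 (3.33-fold, adjusted p = 4.25e-06). CDC6 fell by 1.15 ± 0.31 (2.22-fold, adjusted p = 0.00237) and FOXM1 by 1.12 ± 0.27 (2.18-fold, adjusted p = 0.000822). No gene separated the groups: every member overlapped between mucometra and diestrus, as did all but 0.0941% of all genes in that direction. RRM2 at -0.02 ± 0.36 and CCNE1 at 0.02 ± 0.12 were at nearly the same mean in both groups. Markers of other cells rose in the same comparison, in which 3.56% of all genes rose: 5 of 17 T and NK cell, 3 of 13 stromal, 3 of 13 neutrophil, 2 of 10 smooth muscle, 1 of 13 macrophage and monocyte and 1 of 10 B and plasma cell markers, among them CD2 (1.90), DES (1.61), FBLN1 (1.53), JCHAIN (1.52) and S100A8 (1.20). The simple epithelium marker ESRP1 fell by 1.19 and MUC1 rose by 2.22. The part of these cells was not tested. Unlike the healthy dogs, the mucometra dogs in diestrus were not all in early diestrus. The part of early, mid or late diestrus in the result was not tested.

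In CEH 2 members fell against diestrus, ANLN by 1.21 ± 0.36 (2.32-fold, adjusted p = 0.0126) and TTK by 1.08 ± 0.34 (2.12-fold, adjusted p = 0.0177), where 0.953% of all genes fell. The median was -0.57, and MKI67 at -1.01 ± 0.51 (adjusted p = 0.139) and CDC6 at -0.82 ± 0.35 (adjusted p = 0.078) were not called. With only the 10 CEH dogs in diestrus, no member was called (6 at an unadjusted p under 0.05 by limma), where 0.0502% of all genes fell. Between mucometra and CEH no member was called, where 0.138% of all genes rose and 0.00627% fell, and 11 members had an unadjusted p under 0.05 by limma. The median was -0.33 and 50 of 53 values were negative, among them all 33 mitotic genes, with NUSAP1 (-0.82 ± 0.27, adjusted p = 0.0915) the lowest and MCM5 at -0.44 ± 0.14 (adjusted p = 0.077). In CEH 4 dogs had a mitotic mean of 0.80 to 1.83, and the other 12 lay between -1.18 and -0.22. Treated CEH dogs were on both sides, with dogs 81 and 162 at 0.87 and 1.00 and dogs 29 and 196 at -1.18 and -1.06.

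Pyometra as a whole had a mean near that of diestrus in most of these genes. No member was called in a set of dogs where 6.72% of all genes rose and 3.26% fell, 6 had an unadjusted p under 0.05 by limma, and the median was 0.15. There were 4 G1/S genes that passed the adjusted p but not the 2-fold limit: CCNE1 (0.70 ± 0.17, 1.62-fold, adjusted p = 0.000662), RRM2 (0.94 ± 0.37, adjusted p = 0.0301) and MCM6 (0.56 ± 0.23, adjusted p = 0.0377) were higher and TYMS (-0.26 ± 0.09, adjusted p = 0.0125) was lower. The 2 kinds of pyometra dog lay on opposite sides. In the treated dogs 21 members rose above diestrus, 17 mitotic and 4 G1/S, where 7.70% of all genes rose. RRM2 rose 3.42-fold (1.77 ± 0.37, adjusted p = 0.000132), MYBL2 3.04-fold (1.60 ± 0.30, adjusted p = 3.19e-05), KIF11 2.91-fold (1.54 ± 0.46, adjusted p = 0.00549) and CCNE1 2.18-fold (1.12 ± 0.16, adjusted p = 3.32e-07). AURKB at -0.12, TYMS at -0.14 and MCM7 at 0.12 did not pass. In no member did treated pyometra and diestrus stand apart, where 3.88% of all genes lay wholly above diestrus. Markers of leukocytes rose in the same dogs, with 13 of 13 macrophage and monocyte, 10 of 13 neutrophil, 7 of 10 B and plasma cell and 8 of 17 T and NK cell markers higher, among them S100A12 by 5.92, ADGRE1 by 4.44, JCHAIN by 3.61 and CD14 by 3.09 on the log2 scale. In the stromal list 6 of 13 rose and in the endothelial list 5 of 11, and the part of these cells was not tested.

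In the untreated pyometra dogs 6 members fell below diestrus, where 3.0% of all genes fell. They were MCM3 (fell by 1.07 ± 0.28, 2.09-fold, adjusted p = 0.00308) and E2F1 (1.21 ± 0.33 lower, 2.31-fold, adjusted p = 0.00416) among the G1/S genes, and TTK (fell by 1.48 ± 0.40, 2.80-fold, adjusted p = 0.00361), BUB1B, ANLN and ECT2 among the mitotic genes. MKI67 was at -1.27 ± 0.64 (adjusted p = 0.111). The count rests on single dogs: leaving out 1 of 4 of the 7 untreated dogs moved it by over 1.5 times, to 2 without dog 198, to 3 without dog 100 or dog 225, and to 11 without dog 199, whose mitotic mean of 0.50 stood above the -1.10 to -0.15 of the other 6. Among markers of other cells 12 of 13 macrophage and monocyte, 4 of 13 neutrophil, 5 of 9 squamous and basal and 3 of 10 smooth muscle markers were higher in these untreated dogs than in diestrus, and their part was not tested. The share of all genes that rose in the untreated dogs alone is not given here, and in pyometra as a whole against diestrus it was 6.72%. The comparisons with diestrus share the same 21 dogs, so their values stand side by side and are not independent.

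**Figure D4:**
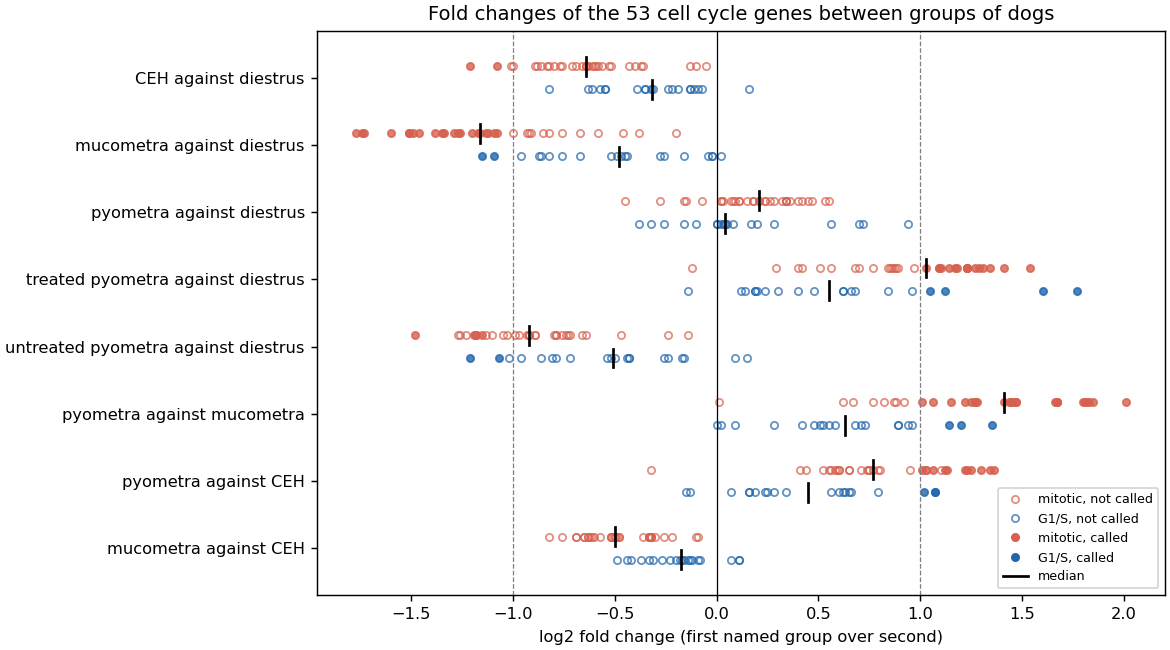
Log2 fold changes of the 53 genes in 8 comparisons, G1/S and mitotic genes apart, with filled points for called genes, a black bar for the median and dashed lines at 2-fold up and down. Medians of the mitotic genes are 1.03 for treated pyometra against diestrus, -0.92 for untreated pyometra against diestrus and -1.16 for mucometra against diestrus.

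Pyometra had higher levels of many members than the sterile diseases. Against mucometra 28 members rose (25 mitotic and 3 G1/S), where 2.82% of all genes rose, with a median of 1.06. MKI67 rose 4.02-fold (2.01 ± 0.42, adjusted p = 0.000602), BUB1 3.60-fold (1.85 ± 0.34, adjusted p = 0.000217), KIF11 3.56-fold (1.83 ± 0.42, adjusted p = 0.0013) and CDC6 2.54-fold (1.35 ± 0.31, adjusted p = 0.00131), while AURKB (0.01 ± 0.17) and MCM7 (0.02) had nearly equal means. Against CEH 14 rose (11 mitotic and 3 G1/S), where 4.28% of all genes rose, with a median of 0.65. This count rests on single dogs: leaving out 1 dog moved it by over 1.5 times for 12 dogs, to between 6 (without pyometra dog 218) and 9. CDK1 rose 2.57-fold (1.36 ± 0.35, adjusted p = 0.0026), KIF11 2.53-fold (1.34 ± 0.47, adjusted p = 0.0223), MYBL2 2.11-fold (1.07 ± 0.32, adjusted p = 0.0083) and RRM2 2.11-fold (1.07 ± 0.38, adjusted p = 0.0225). Markers of leukocytes were higher there too, with 10 of 13 neutrophil, 9 of 13 macrophage and monocyte and 6 of 10 B and plasma cell markers against mucometra and 10 of 13, 12 of 13 and 6 of 10 against CEH, and their part was not tested. Without treated dogs on either side no member was called in either comparison, where 0.602% of all genes rose against mucometra and 1.85% against CEH. Against mucometra the median was then 0.15, with 7 members at an unadjusted p under 0.05 by limma (5 higher and the others lower), and against CEH it was -0.21, with 7 members at that level, none of them higher. Treated pyometra alone lay wholly above mucometra in 6 of 20 G1/S and 16 of 33 mitotic genes, where 2.40% of all genes did.

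The 21 healthy diestrus dogs varied widely among themselves. The SD over these dogs had a median of 1.17 in the mitotic genes and 0.85 in the G1/S genes, beside 0.25 in all genes, and 47 of the 53 members (all 33 mitotic and 14 G1/S) were above 0.57, the 90th percentile of all genes. MKI67 had the largest SD at 1.65, followed by NUF2 at 1.55 and TOP2A at 1.52. The narrowest were E2F2 at 0.16, TYMS at 0.27, CCNE1 at 0.41 and MCM7 at 0.44. In treated pyometra the members' median SD was 0.42, with 3 above that group's 90th percentile of 0.55. It was 0.55 in untreated pyometra (22 above), 0.43 in mucometra (18 above) and 0.74 in CEH (37 above).

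Dogs 141, 148 and 157 were highest, with MKI67 at 10.45, 10.32 and 10.18, TOP2A at 9.13, 8.99 and 8.95 and KIF11 at 8.67, 8.40 and 8.28. Dogs 25, 79 and 119 were lowest, with MKI67 at 5.88, 5.76 and 5.51, TOP2A at 4.72, 4.53 and 4.90 and KIF11 at 4.16, 3.83 and 4.93. The G1/S genes followed the same order, with CDC6 at 8.57, 8.58 and 8.26 in the highest dogs and at 5.31, 5.54 and 5.14 in the lowest, MCM2 at 8.46, 8.52 and 8.44 against 6.31, 5.67 and 5.89, and PCNA at 9.54, 9.80 and 9.58 against 6.72, 7.55 and 7.51. E2F2 moved little, with 7.19, 7.09 and 7.09 against 6.78, 6.79 and 6.59. The mitotic mean had its widest gap, of 0.82, between 13 dogs at -1.04 to 0.11 and 8 dogs at 0.94 to 2.38. The 1 treated diestrus dog was among the upper 8, at 1.13.

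**Figure D5:**
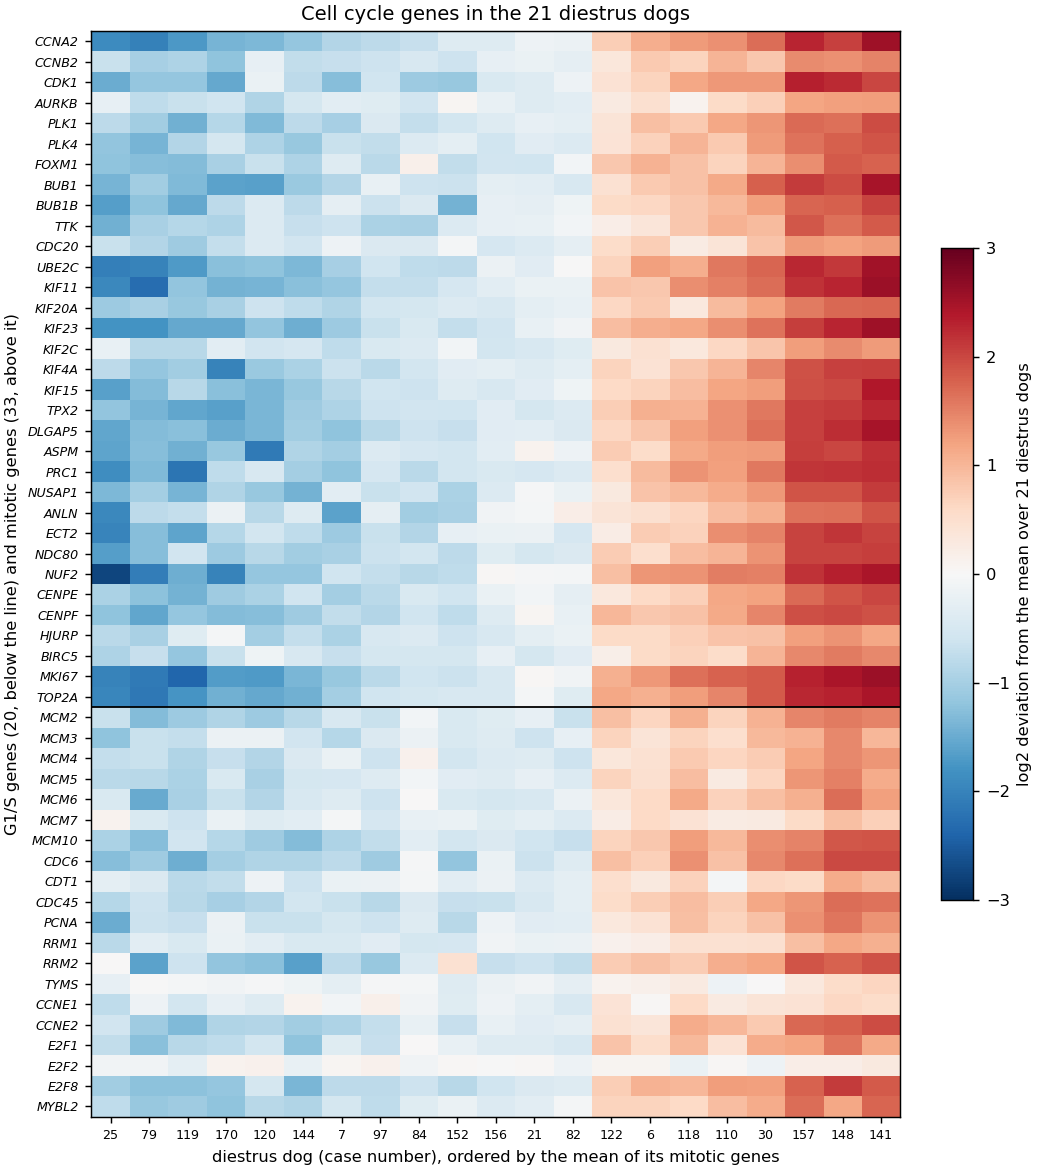
Log2 level of each of the 53 genes in each of the 21 diestrus dogs, relative to the gene's mean over these dogs, with dogs ordered by the mean of the mitotic genes and genes grouped by role. The 8 dogs at the high end are high in nearly all rows, while the rows of E2F2 and TYMS are almost flat.

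Members moved together across the 21 diestrus dogs, given here as description, since all values of a dog come from 1 array. Pearson's r had a median of 0.96 over the 528 pairs of mitotic genes (0.83 to 0.99), of 0.91 over the 190 pairs of G1/S genes (0.36 to 0.98) and of 0.93 over the 660 pairs across the phases. Because the dogs fell on both sides of a gap, r was also taken within each side: the medians were 0.95, 0.80 and 0.85 in the upper 8 dogs and 0.65, 0.31 and 0.45 in the lower 13. The sides were cut on the mitotic mean itself, which narrows its range within a side, so lower values there can follow from the cut. The mean of the G1/S genes and the mean of the mitotic genes had r = 0.99 over all 21 dogs, 0.94 in the upper 8 and 0.86 in the lower 13. The G1/S genes least like the mitotic mean were E2F2 (r = 0.47), TYMS (0.76), CCNE1 (0.84) and MCM7 (0.87).

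Genes outside the list with the pattern most like the mitotic mean in diestrus had r = 0.99 over the 21 dogs. They were ESCO2, which acetylates cohesin, the kinetochore scaffold KNL1, CDCA3, securin (PTTG1), REXO5, DEPDC1, the condensin subunit NCAPG and CKAP2L, and within the upper and the lower dogs their r stayed between 0.90 and 0.99. The most opposite patterns were those of EPB41L4A (r = -0.95), FAXDC2 (-0.92), the desmosome gene PERP (-0.91), N4BP2L1 (-0.91) and BMF, a BCL2 family member that favours cell death (-0.91). All these genes were picked by r over the same 21 dogs. Within the sides of the gap the opposite patterns had weaker r, which can follow from the cut on the mitotic mean itself. In the upper 8 dogs r was -0.72 for EPB41L4A, -0.70 for FAXDC2, -0.37 for PERP, -0.59 for N4BP2L1 and -0.80 for BMF, and in the lower 13 it was -0.75, -0.44, -0.69, -0.67 and -0.64 in the same order. Of the next in rank, CPD (-0.90 over all 21 dogs) had r = -0.05 in the upper 8. Of the marker lists, the mean of stromal markers had r = 0.64 with the mitotic mean over the 21 dogs, smooth muscle 0.50, neutrophil 0.17 and simple epithelium -0.36, and their part in the spread among dogs was not tested.

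Further genes of the same processes, from lists taken beside the members, moved likewise between treated and untreated pyometra. In the list of other mitotic genes 37 of 55 rose with a median of 1.25, among them NCAPG (2.43 ± 0.31, 5.41-fold) and DEPDC1 by 2.38, and in the list of other replication genes 12 of 39 rose with a median of 0.71, among them the histone chaperone ASF1B (2.30 ± 0.28, 4.91-fold, adjusted p = 5.96e-05) and DTL, which directs the loader CDT1 to degradation, by 1.98. None of either list fell. In mucometra against diestrus 20 of the 55 mitotic and 4 of the 39 replication genes fell, with medians of -0.72 and -0.49, RACGAP1, a cytokinesis regulator, by 1.95 and the centrosome kinase NEK2 by 1.84.

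The genes that act earlier in G1 and those that hold the cycle back had few calls. Of 11 G1 cyclins, kinases and MYC none was called between treated and untreated pyometra (median 0.26, with 4 at an unadjusted p under 0.05 by limma), nor of 21 inhibitors and exit genes (median 0.00, with 11 at an unadjusted p under 0.05). In the G1 list CDK4 (0.49 ± 0.12, adjusted p = 0.00953), E2F3 (0.77 ± 0.19, adjusted p = 0.0102) and CDK2 (0.59 ± 0.15, adjusted p = 0.0154) were higher short of the 2-fold limit. CDKN1A and CDKN1B, inhibitors of cyclin-dependent kinases, were both at 0.00. GAS1, linked to growth arrest, was at -0.89 ± 0.13 (adjusted p = 0.000218) and RBL2, a pocket protein of resting cells, at -0.55 ± 0.09 (adjusted p = 0.000786), while GADD45B, a stress gene, was at 0.69 ± 0.20 (adjusted p = 0.0239) and E2F4, a repressor E2F, at 0.41 ± 0.12 (adjusted p = 0.0239). In all 9 of these 21 genes passed the adjusted p short of the 2-fold limit, 2 higher and 7 lower. Against diestrus the antiproliferative gene BTG2 rose 4.53-fold in mucometra (2.18 ± 0.26, adjusted p = 2.48e-08). In pyometra as a whole against diestrus CDKN1A rose by 1.46 ± 0.15, BTG2 by 1.33 and CCND3, a G1 cyclin, by 1.05, while CCNG2, which is high in resting cells, fell by 1.03.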

How the data were processed

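Endometrial RNA of 69 dogs was hybridised to 1 array each. The deposited values are log2 expression per probe set, which the authors made with quantile normalization and RMA. They were used as deposited, from -0.16 to 14.12 over 32391 probe sets, of which 16545 carried 1 gene symbol, 370 several and 15476 none. For each of 15947 genes the probe set with the highest mean was taken, and 598 others were set aside. All 53 members matched a RefSeq table (UU_Cfam_GSD_1.0), used for names only. The number of arrays limits the precision.

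Diagnosis came from the sample titles. Treatment, cervix and stage of each dog were read by case number from the study's clustering figure, since the labels used here do not hold them. A misread dog would move the treatment comparisons.

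Each pair of groups was fitted with limma 3.58.1 (lmFit, eBayes) in R 4.3.3 over all 15947 genes, with Benjamini-Hochberg adjustment. A gene was called at 2-fold or more and an adjusted p under 0.05. Means and drawings used Python 3.11.15 and matplotlib 3.10.9. The fits were tested on simulated data. Alternatives were another shared fit, trend and robust moderation, array weights, no fold limit, a filter on dim genes (mean under 5), median centring, the mean of probe sets, subsets of dogs and leaving out each dog.

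The members, the other lists and the genes named were chosen with earlier results of these data known, so no p was adjusted over a list alone. Named genes were the members, in order of role, with levels for a fixed set of 14 measured genes and otherwise the largest and smallest changes of each phase, and up to 4 called genes of each other list. Others of these genes were named after their values were seen.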

Additional observations from a re-analysis of the deposited data

Results flagged for a closer look

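By an interaction term over 48 dogs, 34 of the 53 genes had unlike differences by treatment in pyometra and in the sterile diseases, CEH and mucometra. Of all genes 2.55% were called as larger in pyometra. The difference between the effects was 2.13 for MKI67, 2.11 for TOP2A, 1.71 for BUB1, 2.16 for KIF11, 1.51 for E2F1, 1.71 for CDC6, 1.53 for MCM2 and 2.25 for RRM2 on the log2 scale, each larger in pyometra. CEH and mucometra held 6 treated dogs only, of which 3 were in anestrus, while no treated pyometra dog was. The count was 13 without dogs 100 and 216 and 22 in 1 fit of all 69 arrays.

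In untreated pyometra, E2F1 was lowest in dog 198 at 4.68, with the nearest of the other 6 dogs at 5.50, a gap of 0.57 of the range over the 7 dogs. It was the only far value in 48 combinations of group and gene or mean tested this way, and chance alone would mark about 1 in 20.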

How the results depend on the processing

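No paired analysis was possible because the groups share no replicate numbers. Treated against untreated pyometra gave 41 to 44 called members under the alternatives with the 2-fold limit, except 0 with an open cervix only, where fewer dogs entered. For the other settings that moved a count by over 1.5 times the cause was not tested unless the setting itself drops dogs or a limit. Without the 2-fold limit, for which shares of all genes are not given here, the counts were 41 in mucometra against diestrus, 4 in pyometra against diestrus, 22 in pyometra against CEH, 47 in pyometra against mucometra and 13 in untreated pyometra against diestrus. With untreated dogs only they were 5 (all lower) in pyometra against diestrus and 0 in pyometra against CEH and against mucometra. With dogs in diestrus only they were 0 in CEH against diestrus, 1 in pyometra against diestrus and 2 in untreated pyometra against diestrus. The diseased dogs kept there were in early, mid or late diestrus and the healthy ones all in early diestrus. Without dogs 100 and 216 they were 1 in pyometra and 3 in untreated pyometra against diestrus and 13 for the interaction. In 1 fit of all 69 arrays they were 11 in untreated pyometra against diestrus and 22 for the interaction, and with array weights 3 in untreated pyometra against diestrus. With untreated dogs only, the sign turned in pyometra against CEH for CDC6 (-0.08), RRM2 (-0.15), MYBL2 (-0.10), UBE2C (-0.17), KIF11 (-0.11), KIF23 (-0.17), TPX2 (-0.10), DLGAP5 (-0.23), NDC80 (-0.05), NUF2 (-0.11) and MKI67 (-0.21), and in pyometra against mucometra for MYBL2 (-0.02), CCNA2 (0.00) and PLK4 (-0.09). Leaving out each dog in turn (431 fits) gave 46 to 49 over the 4 diagnoses, 1 to 5 in CEH against diestrus (1 without diestrus dog 141 or 157 or CEH dog 180, 5 without CEH dog 127), 20 to 26 in mucometra against diestrus, 0 to 1 in pyometra against diestrus (1 when any 1 of 8 dogs was left out), 0 to 0 in mucometra against CEH, 6 to 17 in pyometra against CEH (6 to 9 without CEH dog 29, 131, 180, 196 or 208 or pyometra dog 185, 186, 205, 206, 213, 218 or 228), 26 to 30 in pyometra against mucometra, 41 to 43 in treated against untreated pyometra, 17 to 24 in treated and 2 to 11 in untreated pyometra against diestrus, 0 to 0 for treatment in CEH and mucometra and 24 to 38 for the interaction.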
